A study of Mus musculus with 6 samples.

Results

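The genes described here are 9 genes of the renin-angiotensin-aldosterone system, taken by symbol from the 55401 genes of the deposited table: Agt, Ren1, Atp6ap2, Ace, Agtr1a, Agtr1b, Agtr2, Mas1 and Nr3c2. They were chosen as parts of the pathway rather than by their values, though with earlier results of these data known. Their transcripts were measured in hearts of C57BL/6 mice aged 6 to 8 weeks, 3 mice induced with angiotensin II (Ang II) and 3 control mice, with 1 poly(A) RNA-seq library per heart. The labels name no genetic change in either group. The dose, route and duration of Ang II and what the control mice received are not given in the sources used here, and the tissue was whole heart, so that all its cell types were pooled. The comparison asks whether the heart's own transcripts for making, sensing and opposing the hormone differed once the hormone had been supplied from outside.

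In this system renin cuts angiotensinogen, the product of Agt, to angiotensin I, and angiotensin converting enzyme, the product of Ace, trims that to Ang II. Ang II acts mainly through the AT1 receptor, which constricts vessels and promotes growth and fibrosis, and which in mice is encoded by the paired genes Agtr1a and Agtr1b; the AT2 receptor (Agtr2) and the Mas receptor (Mas1), which binds angiotensin-(1-7), are regarded as opposing arms. Aldosterone, released by the adrenal gland in response to Ang II, acts on the mineralocorticoid receptor, the product of Nr3c2. In the body as a whole, renin comes mainly from kidney, angiotensinogen from liver and aldosterone from adrenal cortex.

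The hormone given to the treated mice is itself encoded within Agt. The 10 codons of angiotensin I, codons 30 to 39 of the annotated reading frame, lie at chr8:124564450-124564479 of GRCm38 on the minus strand. They are shown because the Agt transcripts counted here encode the same peptide as the agent supplied; capitals mark the 8 codons of Ang II, and the small letters are the pair that Ace removes.
Agt: GACCGCGTATACATCCACCCCTTCcatctc
The receptor pair matters for reading the counts, since short reads from near-identical genes can be split between them. The coding sequences of Agtr1a and Agtr1b were each 1077 bases long and identical at 978 of 1077 aligned positions (90.8%), and 337 of 359 residues (93.9%) matched. The stretch of 60 coding bases with the most differences, bases 964 to 1023 of both reading frames, is given for Agtr1a (chr13:30381917-30381976, plus strand) and for Agtr1b (chr3:20315418-20315477, minus strand), with the 13 differing bases in capitals.
Agtr1a: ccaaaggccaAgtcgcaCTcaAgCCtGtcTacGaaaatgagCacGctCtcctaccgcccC
Agtr1b: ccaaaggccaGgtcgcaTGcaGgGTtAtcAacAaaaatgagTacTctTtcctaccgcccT
None of the 2100 windows of 100 bases in the Agtr1a transcript occurred unchanged in the Agtr1b transcript (GENCODE M21 sequences). Reads of that length that match the Agtr1a transcript exactly thus carry at least 1 base that tells the genes apart. How the reads of these libraries were assigned between the pair was not tested.

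Estimated counts per library ran from 51202916 to 63564869, of which mitochondrially encoded genes made up 35.8% to 47.6%. The hearts are numbered as in the labels, and Ang II replicate 1 stood apart from the other libraries. It held the lowest normalised value of 32.6% and the highest of 30.9% of the 16759 genes tested, where an equal share would be 16.7%. Transcripts of liver were counted in a pair of control libraries. Albumin (Alb) had 12, 4 and 42 counts in Ang II hearts 1, 2 and 3 and 2009, 12 and 1155 counts in control hearts 1, 2 and 3, and Apoa1 and Serpina1c followed the same libraries. All 5 cardiomyocyte markers fixed for the tissue check were counted in every library, whereas of 4 kidney markers Umod, Slc12a1 and Ren1 were at 0 in every library and Slc34a1 had 4 counts in Ang II replicate 3 alone. Of 4 adrenal markers the enzymes Cyp11b1, Cyp11b2 and Cyp21a1 were at 0 in every library, and Star, a cholesterol transporter of steroid-making cells, had 72, 86 and 118 counts in Ang II and 75, 150 and 95 counts in control hearts 1, 2 and 3.

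The levels of the detected genes kept 1 order in every heart. Per length of transcript (FPKM), Ace was the most abundant and Agtr1a next, followed by Atp6ap2, Agt, Nr3c2 and Mas1. In each of these neighbouring pairs the upper gene exceeded the lower in 6 of 6 libraries. The closest was Agt over Nr3c2, whose FPKM ratio was as low as 1.04 in 1 library, and the widest was Nr3c2 over Mas1, with ratios of 1.28 to 4.74. Ren1, Agtr1b and Agtr2 were at or near 0.

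**Figure D1:**
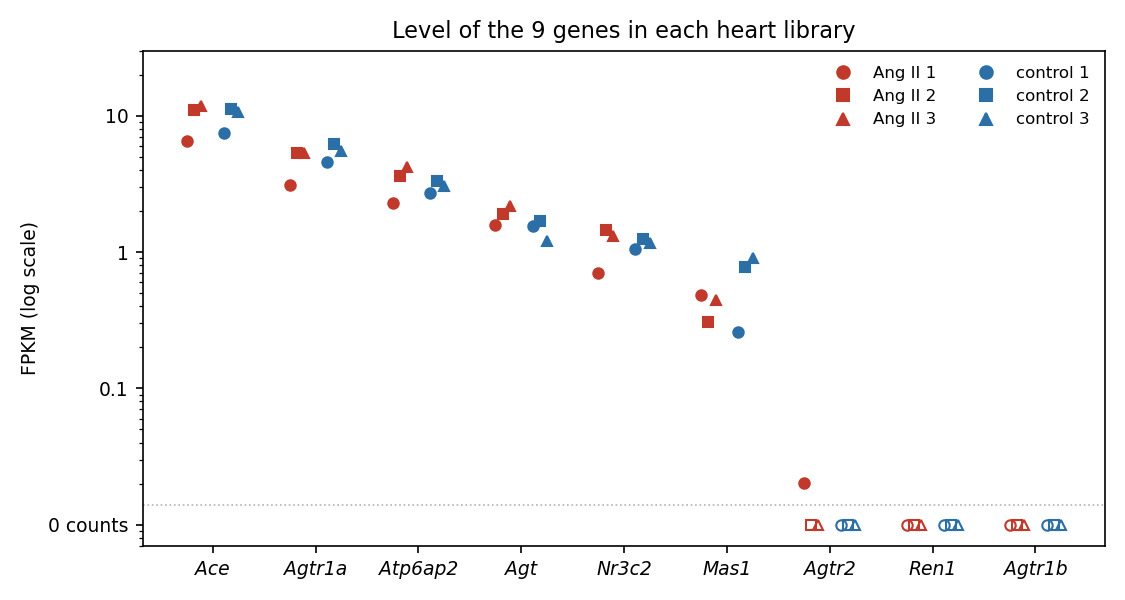
FPKM of each of the 9 genes in each library, on a log axis, with Ang II libraries in red to the left of control libraries in blue and symbols marking the replicate number; open symbols under the dotted line are libraries with 0 counts. Ace lies between 6.53 and 11.8 FPKM, the receptor Agtr1a between 3.12 and 6.18, and Ren1 and Agtr1b have no count in any library.

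None of the 9 genes passed the test for a difference between Ang II and control hearts. Of the 9, 6 had enough counts to be tested by edgeR's quasi-likelihood test on the estimated counts, where 0 of 6 reached a Benjamini-Hochberg adjusted p under 0.05 over all genes tested and 0 of 6 an unadjusted p under 0.05; DESeq2 on the same counts also called 0 of them. Over all 16759 genes tested, edgeR called 0.0358% and DESeq2 called 1.65%, and 7.51% had an unadjusted p under 0.05 by edgeR. Agt and Atp6ap2 had log2 changes above 0 and Agtr1a, Mas1, Ace and Nr3c2 below 0. The median of the 6 was -0.08, beside 0.01 over all genes tested, of which 50.9% had a log2 change above 0. A p that misses the threshold does not show that the groups are alike, and the 95% intervals of the 6 fold changes ran from 0.314 at the lowest bound, for Mas1, to 1.78 at the highest, for Agt.

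Among the genes that make the hormone, Agt (ENSMUSG00000031980; chromosome 8, 124556534 to 124569706, minus strand) was low in these hearts. Agt had 3.84, 3.56 and 3.95 CPM (normalised counts on edgeR's CPM scale) in Ang II hearts 1, 2 and 3, against 4.01, 3.05 and 2.42 CPM in control hearts 1, 2 and 3. Ang II libraries lay close together and control libraries were spread around them, with control replicate 1 the highest of all 6. The means were 3.78 ± 0.203 and 3.16 ± 0.799 CPM (SD, n = 3 each), a log2 change of 0.26 (SE 0.24, 95% interval -0.30 to 0.83; edgeR adjusted p = 0.816). Control replicates 1 and 3, which carried liver RNA, held the highest and the lowest Agt value of the control group. The log2 change was 0.47 without control replicate 1, 0.10 without control replicate 3 and 0.25 without Ang II replicate 1, with adjusted p from 0.705 to 0.979 by edgeR. The part of liver RNA in the Agt values was not tested.

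Ren1 (ENSMUSG00000070645; chromosome 1, 133350510 to 133360325, plus strand), the gene of renin, had 0 counts in all 3 Ang II and all 3 control libraries. Ren1 was thus not detected among 177721805 counts of the Ang II and 168933300 counts of the control group. A count of 0 allows up to 3 counts, or 0.0162 CPM over the Ang II and 0.0179 CPM over the control libraries; such limits cover counting error alone. C57BL/6 mice carry Ren1 without the duplicated Ren2 of some other strains.

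Atp6ap2 (ENSMUSG00000031007; chromosome X, 12587801 to 12617049, plus strand) encodes the (pro)renin receptor, which binds renin and prorenin and is also an accessory subunit of the vacuolar proton pump. It had 7.80, 9.29 and 10.6 CPM in Ang II hearts 1, 2 and 3, against 9.63, 8.23 and 8.42 CPM in control hearts 1, 2 and 3. The groups overlapped, and Ang II hearts held both the lowest and the highest value. The log2 change was 0.08 (SE 0.18, interval -0.34 to 0.50; edgeR adjusted p = 0.924).

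Ace (ENSMUSG00000020681; chromosome 11, 105967945 to 105989964, plus strand), a peptidase of the vessel lining, was the most abundant of the 9. It had 44.6, 57.0 and 60.1 CPM in Ang II hearts 1, 2 and 3, against 53.8, 56.5 and 59.1 CPM in control hearts 1, 2 and 3. Apart from Ang II replicate 1, which was the lowest, the libraries of the groups interleaved. The log2 change was -0.07 (SE 0.16, interval -0.45 to 0.31; edgeR adjusted p = 0.927), and without Ang II replicate 1 it was 0.05. The 5 endothelial markers (Pecam1, Cdh5, Kdr, Tie1 and Egfl7) were all counted in every library. They summed to 554, 485 and 487 CPM in Ang II and 641, 651 and 618 CPM in control libraries, groups that did not overlap. Of the 5, 2 were lower at an unadjusted p under 0.05 by edgeR. Over all 16759 genes tested, 660 were lower at such a p, and 9.21% had every Ang II library below every control library. Among the 5 markers Egfl7 alone had a log2 change above 0, at 0.23. It measured 180, 71.4 and 75.8 CPM in Ang II against 104, 81.8 and 92.8 CPM in control hearts, which raised the sum of Ang II replicate 1. Cdh5, Kdr and Tie1, like Ace, were lowest in that library, and Pecam1 was not. In bulk tissue, fewer cells of a type and less RNA per cell cannot be told apart, and the part of endothelial content in the Ace values was not tested.

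**Figure D2:**
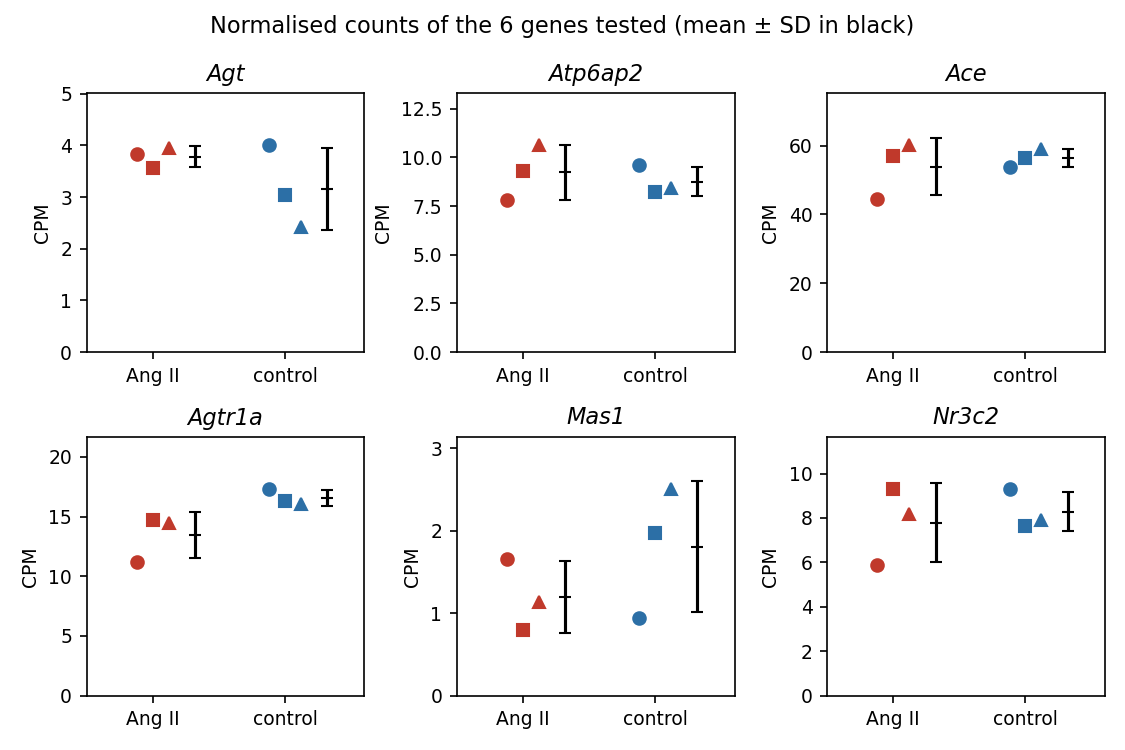
Normalised counts (CPM, linear axes from 0) of the 6 genes with enough counts to be tested, 1 point per library with symbols for replicates 1 (circle), 2 (square) and 3 (triangle), Ang II on the left and control on the right of each panel; the black bar gives the mean and SD of 3 libraries. The groups separate for Agtr1a alone, where Ang II libraries lie between 11.2 and 14.7 CPM and control libraries between 16.1 and 17.3 CPM.

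Of the receptors, Agtr1a (ENSMUSG00000049115; chromosome 13, 30336441 to 30382867, plus strand) was the AT1 receptor gene with counts. It had 11.2, 14.7 and 14.4 CPM in Ang II hearts 1, 2 and 3, against 17.3, 16.3 and 16.1 CPM in control hearts 1, 2 and 3. Every Ang II library lay below every control library, a separation that 9.21% of all genes tested showed in that direction and 7.97% in the other, 17.2% together. The fold change was 0.812 (log2 change -0.30, SE 0.16, interval -0.68 to 0.08; edgeR unadjusted p = 0.104, adjusted p = 0.715), which is not past the threshold. On the deposited FPKM scale the groups overlapped, at 3.12, 5.37 and 5.36 FPKM in Ang II against 4.58, 6.18 and 5.47 FPKM in control hearts 1, 2 and 3. Without Ang II replicate 1, the lowest, the log2 change was -0.18 (edgeR adjusted p = 0.441).

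Agtr1a is known in heart chiefly from fibroblasts and from pericytes and smooth muscle of vessels. The 5 fibroblast markers, all counted in every library, summed to 144, 427 and 406 CPM in Ang II hearts 1, 2 and 3, against 378, 399 and 396 CPM in control hearts 1, 2 and 3. The 5 pericyte and smooth muscle markers, also all counted, summed to 403, 585 and 563 CPM in Ang II and 531, 637 and 552 CPM in control libraries. Both sums were lowest in Ang II replicate 1, the library where Agtr1a was lowest. In Ang II replicates 2 and 3 the fibroblast sum was above that of every control library. The markers in it were split there. Dcn, Pdgfra and Lum were above every control library, and Col1a1 and Tcf21, like Agtr1a, were below. Dcn, a matrix proteoglycan gene, was the largest component of the fibroblast sum in every library. It measured 69.2, 327 and 309 CPM in Ang II against 279, 291 and 297 CPM in control hearts 1, 2 and 3. Of the 5 fibroblast markers 2 were lower at an unadjusted p under 0.05 by edgeR. For both, every Ang II library lay below every control library, as for Agtr1a. Over all 16759 genes tested, 660 were lower at such a p and 9.21% showed that separation. Col1a1, a fibrillar collagen gene, measured 33.5, 34.9 and 36.8 CPM in Ang II against 45.2, 51.4 and 42.5 CPM in control hearts 1, 2 and 3. Tcf21, a transcription factor gene of cardiac fibroblasts, measured 2.88, 4.34 and 2.95 CPM in Ang II against 4.90, 5.08 and 4.74 CPM in control hearts. Neither passed the correction over all genes (edgeR adjusted p = 0.583 for Col1a1 and 0.662 for Tcf21). Pdgfra, another of the 5, had a log2 change above 0, at 0.24. It measured 14.4, 25.0 and 21.5 CPM in Ang II against 17.0, 18.3 and 16.4 CPM in control hearts. Lum had a log2 change of -0.06. It measured 24.1, 36.1 and 36.0 CPM in Ang II against 31.8, 33.6 and 35.0 CPM in control hearts. None of the 5 pericyte and smooth muscle markers (0 of 5) had an unadjusted p under 0.05 by edgeR. The groups did not overlap for Kcnj8, which was also lower in Ang II hearts. The part of these cell types in the Agtr1a values was not tested.

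**Figure D3:**
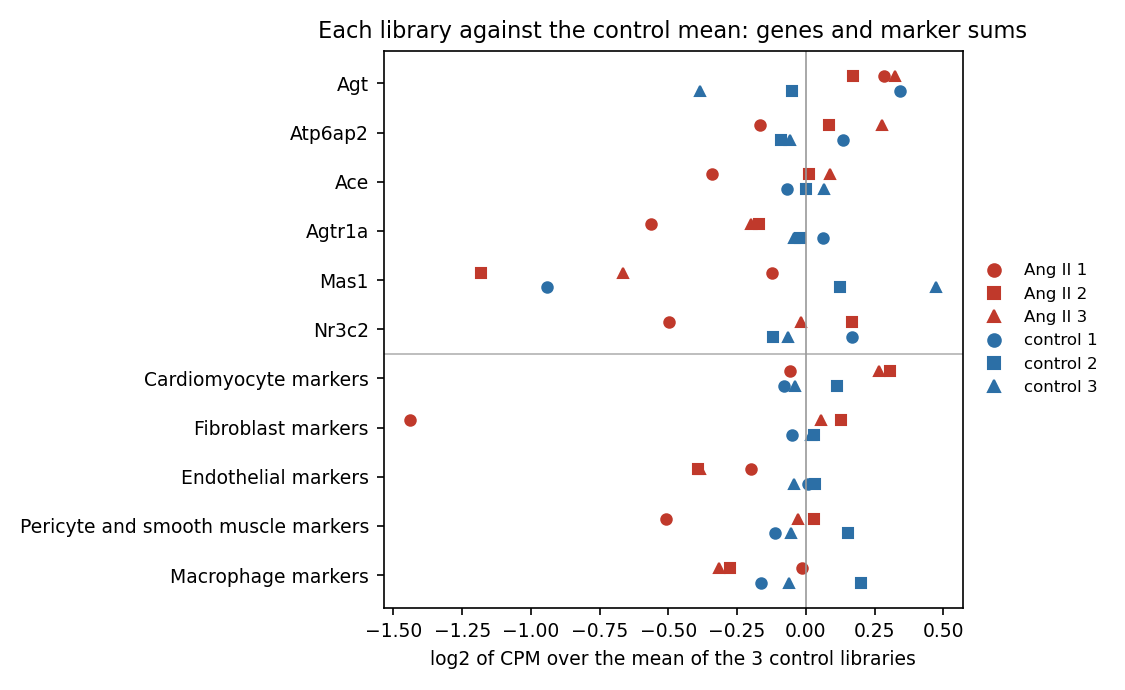
Log2 ratio of each library to the mean of the 3 control libraries, for the CPM of the 6 genes tested and for the summed CPM of 5 marker genes per cell type; red symbols are Ang II and blue symbols control libraries, with the replicate number as circle, square or triangle. Ang II replicate 1 has a fibroblast sum of 144 CPM, against 378 to 399 CPM in control libraries, and is the lowest library for Atp6ap2, Ace, Agtr1a and Nr3c2.

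Agtr1b (ENSMUSG00000054988; chromosome 3, 20314473 to 20367177, minus strand) had 0 counts in all 3 Ang II and all 3 control libraries. The same limits of 0.0162 and 0.0179 CPM hold for it as for Ren1, beside an Agtr1a mean of 13.5 ± 1.95 CPM in Ang II and 16.6 ± 0.660 CPM in control hearts. Agtr2 (ENSMUSG00000068122; chromosome X, 21484544 to 21489164, plus strand) had 4 counts in Ang II replicate 1 and 0 in the other 5 libraries. It was too low to be tested, and 4 counts in 1 library do not distinguish the groups.

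Mas1 (ENSMUSG00000068037; chromosome 17, 12841079 to 12868143, minus strand), the receptor of angiotensin-(1-7), was the lowest of the genes tested. It had 1.66, 0.796 and 1.14 CPM in Ang II hearts 1, 2 and 3, against 0.941, 1.97 and 2.51 CPM in control hearts 1, 2 and 3. The groups overlapped through control replicate 1, the second lowest library. The log2 change was -0.60 with a wide error (SE 0.45, interval -1.67 to 0.47; edgeR adjusted p = 0.772), and it was -0.91 without control replicate 1, -0.90 without Ang II replicate 1, -0.38 without Ang II replicate 2 and -0.30 without control replicate 3. Mas1 lies across from Airn, a long noncoding RNA on the opposite strand whose span overlaps it. Airn had 84, 303 and 282 counts in Ang II and 166, 169 and 162 counts in control hearts 1, 2 and 3, more than the 72, 56 and 81 counts of Mas1 in Ang II and the 43, 131 and 138 in control libraries. The strandedness of the libraries is not given in the sources used here, so reads of the pair may not be told apart, and the Mas1 values are uncertain.

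Nr3c2 (ENSMUSG00000031618; chromosome 8, 76899442 to 77245012, plus strand) encodes the mineralocorticoid receptor, a nuclear receptor that binds aldosterone and, with like affinity, corticosterone. It had 5.87, 9.32 and 8.19 CPM in Ang II hearts 1, 2 and 3, against 9.30, 7.63 and 7.93 CPM in control hearts 1, 2 and 3. Ang II hearts held both the highest value, by a small margin, and the lowest. The log2 change was -0.09 (SE 0.21, interval -0.60 to 0.42; edgeR adjusted p = 0.932) and changed sign, to 0.08, without Ang II replicate 1.

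**Figure D4:**
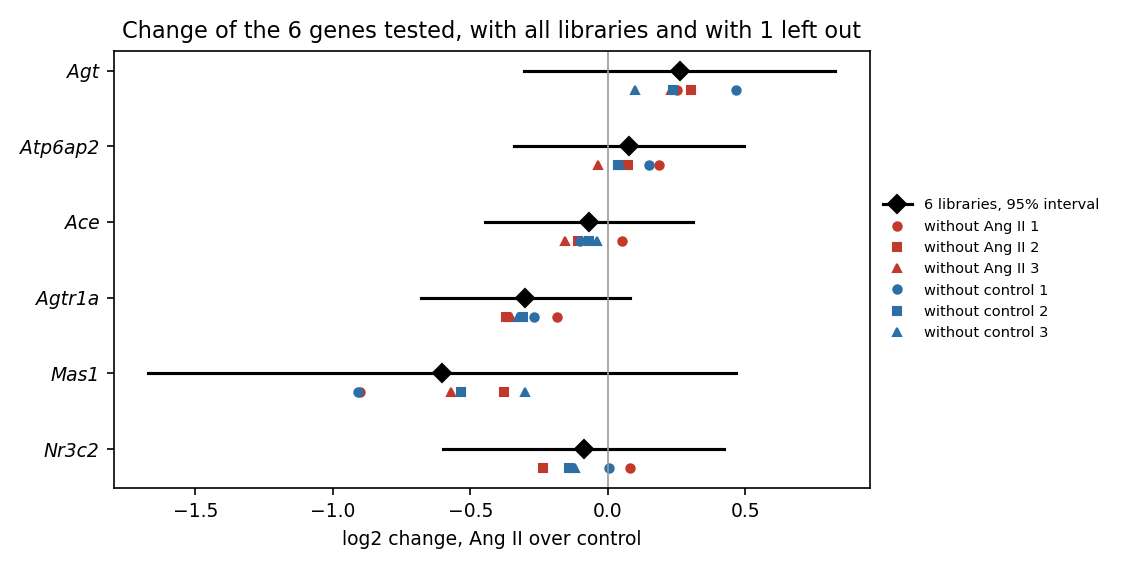
Log2 change of the 6 genes tested, Ang II over control, as the edgeR estimate from 6 libraries (black diamond) with its 95% interval (black line), and below it the estimate with each single library left out (red for an Ang II, blue for a control library; circle, square and triangle for replicates 1, 2 and 3). Every interval from 6 libraries includes 0, and the Agtr1a estimates stay between -0.37 and -0.18.

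Ratios taken within a library do not depend on how libraries were scaled. The FPKM ratio of Nr3c2 to Nr3c1, the glucocorticoid receptor, was 0.444, 0.469 and 0.387 in Ang II and 0.459, 0.302 and 0.365 in control hearts. The mineralocorticoid receptor transcript was therefore the lower of these related receptors in every heart. The ratio of Mas1 to Agtr1a was 0.155, 0.0573 and 0.0825 in Ang II against 0.0568, 0.126 and 0.165 in control hearts. That of Atp6ap2 to Atp6ap1, the other accessory subunit of the proton pump, was 1.05, 0.361 and 0.448 in Ang II hearts, against 0.434, 0.341 and 0.394 in control hearts. The ratio of Agt to Agtr1a, chosen after its values were seen, did not overlap, at 0.505, 0.354 and 0.403 in Ang II against 0.340, 0.274 and 0.220 in control hearts. By a two-sided exact permutation test over the 6 libraries it gave p = 0.1, the smallest p that 3 against 3 allows, and 0.4 adjusted over the 4 ratios compared. Since the ratio was chosen after its values were seen, neither p can decide whether it differed between the groups. The other 3 ratios gave exact p from 0.3 to 0.8.

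The deposited annotation assigned 35 genes to the KEGG renin-angiotensin pathway, 8 of the 9 genes among them. Of these 35, 19 were tested, and edgeR called 0, DESeq2 called 0 and 0 had an unadjusted p under 0.05 by edgeR. Around the 9 genes, 7 lists of pathway genes held 94 genes, of which 82 were tested. Of the 82, edgeR called 1 over all genes and gave 16 an unadjusted p under 0.05, with 9 of the 16 higher and 7 lower. Over all genes tested, edgeR called 0.0358% and gave 7.51% an unadjusted p under 0.05, and DESeq2 called 1.65%. These shares stand beside the counts of each list below. The AT1 receptor response genes, picked with earlier results of these data known, made up 5 of the 9 higher and 1 of the 7 lower. The median log2 change of the 82 was -0.01, beside 0.01 over all genes tested.

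The list of peptidases that cut angiotensins does not hold every such enzyme, and its counts speak for its 16 genes alone. Of the 16, 15 were tested, with 8 folds above 0, 7 below and a median log2 change of 0.02. None passed by edgeR (0 of 15) and 1 had an unadjusted p under 0.05; DESeq2 called 0. That gene was the lysosomal protease cathepsin D (Ctsd), at 841, 644 and 643 CPM in Ang II and 477, 522 and 560 CPM in control hearts 1, 2 and 3 (log2 change 0.45, SE 0.18; edgeR adjusted p = 0.634). The next smallest p was that of Dpp3, a peptidase that degrades Ang II, with a log2 change of 0.34 (SE 0.17; edgeR adjusted p = 0.701). The mast cell genes Cma1 and Mcpt4 encode proteases of a family that can form Ang II without Ace, and both stayed under 2 CPM in every library.

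Partners of the receptors and related peptide receptors had 5 of 8 genes tested and 0 called by edgeR or DESeq2, with 1 at an unadjusted p under 0.05 by edgeR. Apelin (Apln), a vasodilator peptide, had 6.28, 7.30 and 5.26 CPM in Ang II against 7.77, 10.3 and 8.49 CPM in control hearts 1, 2 and 3, groups that did not overlap (log2 change -0.50, SE 0.20; edgeR adjusted p = 0.643). The bradykinin receptor gene Bdkrb2, whose ligand Ace degrades, had 0.575, 0.626 and 0.689 CPM in Ang II against 1.07, 0.886 and 1.20 CPM in control hearts (log2 change -0.74, SE 0.31; edgeR adjusted p = 0.662). Mrgprd, a receptor of an angiotensin-(1-7) relative, was at 0 counts in every library.

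Genes that make or inactivate corticosteroids had 4 of 9 genes tested, and edgeR and DESeq2 called 0. Aldosterone synthase (Cyp11b2), Cyp11b1 and Cyp21a1 had 0 counts in all 6 libraries. Hsd11b1, the enzyme that regenerates active glucocorticoid, had 7.22, 11.4 and 10.9 CPM in Ang II against 15.6, 13.1 and 15.7 CPM in control hearts 1, 2 and 3. All 3 Ang II values lay below all 3 control values, and the log2 change was -0.59 (SE 0.21; edgeR unadjusted p = 0.0295, adjusted p = 0.599). Hsd11b1 is also abundant in liver, and the part of liver RNA in control replicates 1 and 3 was not tested. Control replicate 2, with 12 counts of Alb and 0 of Apoa1, had the 13.1 CPM. The 3 adipocyte markers (Adipoq, Plin1 and Cfd) summed to 0, 0.882 and 0.717 CPM in Ang II hearts 1, 2 and 3. In control hearts 1, 2 and 3 they summed to 1.95, 2.69 and 2.94 CPM, though the groups overlapped for Plin1. The part of adipocytes in the Hsd11b1 values was not tested. Hsd11b2, the enzyme that shields the mineralocorticoid receptor from glucocorticoid in kidney, was at most 0.506 CPM in an Ang II and 0.241 CPM in a control library. Nr3c1 gave a log2 change of -0.31 (SE 0.21; edgeR adjusted p = 0.764).

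Among targets of the mineralocorticoid receptor, 10 of 13 genes were tested, with 5 folds above 0 and 5 below. None passed by edgeR, which gave 3 an unadjusted p under 0.05, 2 of them higher and 1 lower. DESeq2 called 2, both higher. Fkbp5, a co-chaperone of steroid receptors, had 32.1, 74.1 and 62.5 CPM in Ang II against 17.6, 17.2 and 17.0 CPM in control hearts 1, 2 and 3 (log2 change 1.70, SE 0.31; edgeR adjusted p = 0.276, DESeq2 adjusted p = 0.000126). The transcription factor gene Zbtb16 had 12.9, 45.5 and 49.4 CPM in Ang II against 10.2, 11.8 and 9.60 CPM in control hearts 1, 2 and 3 (log2 change 1.77, SE 0.47; edgeR adjusted p = 0.484, DESeq2 adjusted p = 0.0208). In both genes every Ang II library exceeded every control library and Ang II replicate 1 lay nearest to control; without it edgeR called both, each at an adjusted p of 0.00488. Both are known targets of the glucocorticoid receptor as well, and the action of either receptor was not tested. The kinase gene Sgk1, a further target of both receptors, had a log2 change below 0 instead, at 65.6, 55.8 and 53.0 CPM in Ang II against 72.8, 74.1 and 76.4 CPM in control hearts (log2 change -0.36, SE 0.14; edgeR adjusted p = 0.635).

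Signal carriers of the AT1 receptor had 24 of 24 genes tested, with 8 folds above 0, 16 below and a median log2 change of -0.14. Neither edgeR nor DESeq2 called any of them (0 of 24), and 3, all lower, had an unadjusted p under 0.05 by edgeR. These were Prkcd, a protein kinase C, with 8.70 ± 0.432 CPM in Ang II and 12.6 ± 1.14 CPM in control hearts (SD, n = 3 each; log2 change -0.53, SE 0.15, edgeR adjusted p = 0.487), the calcium release channel gene Itpr1, with 15.2 ± 0.961 and 20.1 ± 1.01 CPM in Ang II and control hearts (log2 change -0.41, SE 0.13, edgeR adjusted p = 0.560), and the phospholipase C gene Plcb1 (log2 change -0.63, SE 0.23).

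Genes known to respond to AT1 receptor activation held the single call. Of 9 tested, 7 had folds above 0, with a median log2 change of 1.27. Ccn2 rose by edgeR's test. An unadjusted p under 0.05 by edgeR was reached by 6 of the 9, 5 of them higher and 1 lower, and DESeq2 called 5, of which 1 was lower. Ccn2, a matrix protein that fibroblasts and muscle cells make under Ang II and TGF-β, had 165, 188 and 177 CPM in Ang II against 44.9, 50.2 and 45.5 CPM in control hearts 1, 2 and 3, a 3.77-fold rise (log2 change 1.91, SE 0.14; edgeR adjusted p = 0.0398). Leaving out any single library other than Ang II replicate 1 ended that call. So did scaling by library totals alone, the replicate block and limma on log2(FPKM + 0.5). Without Ang II replicate 1 edgeR still called Ccn2 (adjusted p = 0.00488). DESeq2 on all 6 libraries called it as well (adjusted p = 4.1e-40). Rcan1, a feedback inhibitor of calcineurin, had 81.8, 123 and 111 CPM in Ang II against 33.2, 47.8 and 44.3 CPM in control hearts, without overlap. Its log2 change was 1.34 (SE 0.22, edgeR adjusted p = 0.249, and 0.039 without Ang II replicate 1). DESeq2 called Rcan1 with all 6 libraries (adjusted p = 4.5e-05). Egr1, an immediate early transcription factor gene, had the largest log2 change of the list in size, and it was negative, at 20.6, 27.3 and 26.9 CPM in Ang II against 41.2, 167 and 113 CPM in control hearts 1, 2 and 3. Its groups did not overlap, and its log2 change was -2.10 (SE 0.48, edgeR adjusted p = 0.392, DESeq2 adjusted p = 0.0023). Without Ang II replicate 1 edgeR did not call Egr1 either (adjusted p = 0.201). These response genes were picked with earlier results of these data known, so their direction is not independent evidence.

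Subunits of the proton pump that Atp6ap2 serves had 15 of 15 genes tested, 8 with folds above 0 and 7 below, and a median log2 change of 0.02. By edgeR and DESeq2 0 were called, and by edgeR 1 had an unadjusted p under 0.05. This was Atp6v1d, at 56.5, 53.6 and 55.1 CPM in Ang II against 42.5, 43.7 and 43.7 CPM in control hearts 1, 2 and 3, a tight separation of small size (log2 change 0.35, SE 0.12; edgeR adjusted p = 0.583). Atp6v1a, next by p, ran the other way (log2 change -0.35, SE 0.17; edgeR adjusted p = 0.690).

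**Figure D5:**
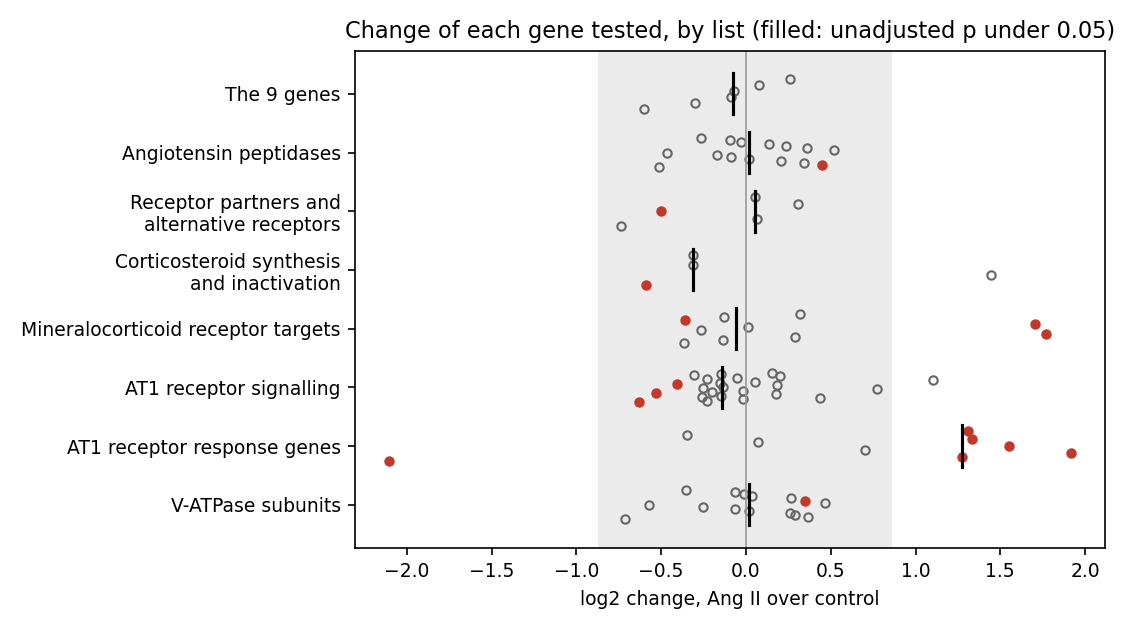
Log2 change, Ang II over control, of every gene tested among the 9 genes and in 7 pathway lists, 1 point per gene; filled red points have an unadjusted p under 0.05 by edgeR, black ticks are list medians, and the grey band spans the 5th to the 95th percentile of all 16759 genes tested (-0.87 to 0.86). The 6 genes of the top row lie inside the band, and the response genes have their median at 1.27.

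Over the 6 libraries the genes whose log2 CPM followed the members most closely were found among those with a mean FPKM of at least 1. They were Tap2 and Nicn1 for Agtr1a (Pearson r of 0.997 and 0.996), Gpbp1l1 for Ace (0.995), Ids and Aldh9a1 for Nr3c2 (0.995 and 0.992), Vps41 and Nutf2-ps1 for Atp6ap2 (0.988 and 0.983), Tspan31 and Ednrb for Agt (0.984 and 0.980) and Itpripl2 and Rmi1 for Mas1 (0.967 and 0.958). Such values describe 6 points that share the scaling of each library and the outlying Ang II replicate 1. For Ace as many as 719 of 8448 genes had r above 0.9, for Agtr1a 427 and for Agt 22.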

How the data were processed

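Poly(A) RNA of 6 hearts was sequenced. Per the submitters' processing notes, the tools were StringTie 1.3.0, HISAT2 2.0 and Bowtie 0.12.2, with no role given. Those notes also list mm8, but all 9 genes, and 94.2% of 55141 shared gene IDs, have GRCm38 coordinates of GENCODE M21, which are printed. The authors deposited FPKM, with 0.0001 standing for 0, and an estimated count per gene, whole as deposited. Such estimates are not raw counts, which edgeR assumes.

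The gene test was edgeR 4.0.16 on those counts (quasi-likelihood, TMM scaling, filterByExpr, two-sided) in R 4.3.3, with an adjusted p under 0.05 over all 16759 genes tested. Standard errors come from the log2 change and its test statistic. DESeq2 1.42.0 and limma 3.58.1 on log2(FPKM + 0.5) were alternatives, beside other scalings, filters, pseudocounts, a replicate block and each library left out; the scripts were tested on simulated data. Depth was 51202916 to 63564869 counts. The hearts came from separate mice, per the series' design text.

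The members and lists were chosen with earlier results of these data known. Named are all 9 members, the genes called and the 2 smallest p of each list, and the 2 genes most like each member; Airn, Sgk1, Plcb1, Egr1, Alb and others outside this rule were chosen after their values were seen. No sample was left out. Results for some genes that this rule names are not reported here.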

Additional observations from a re-analysis of the deposited data

How the results depend on the processing

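The number of the 9 genes called was 0 under all 17 alternatives; the smallest adjusted p among their 99 values was 0.433. Agt, Agtr1a and Mas1 kept their sign in every alternative that gave a value (Mas1 had none in the 3 limma fits on filtered FPKM). With library totals alone Ace was 0.00222 and Nr3c2 0.0145, both above 0 and so reversed, with the cause not tested. With 1 library left out, Ace ran from -0.153 to 0.0528 (Ang II replicate 1 left out), Nr3c2 from -0.234 to 0.0818 (the same) and Atp6ap2 from -0.0347 (Ang II replicate 3 left out) to 0.187; the cause was not tested. Calls over the whole table, 6 in the main test, were 0 with library totals alone and with the replicate block, 12 with no filter, 276 by DESeq2, 3 by limma with pseudocounts of 0.1 and of 1, 2 by limma with no filter, and 0 to 129 with 1 library left out. Calls over the 7 lists, 1 in the main test, were 0 with library totals alone, by limma on log2(FPKM + 0.5) and with the replicate block, 7 by DESeq2, and 0 to 6 with 1 library left out. Deviations of same-numbered libraries from their group means correlated at 0.08, 0.11 and -0.04 for replicates 1, 2 and 3, so the numbers were not taken as pairs, and the replicate block called 0 of the 9 genes. Low counts limit Mas1, Agtr2, Ren1 and Agtr1b most.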
